A study of Mus musculus with 8 samples.

Results

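Tight junctions and desmosomes are the seals and the rivets that hold epithelial cells together, and 33 genes that encode their parts were followed across mouse cells in the middle of reprogramming. The 33 genes were chosen by name, as the rows of the count table whose symbol was on a fixed list: 13 claudins, 6 other membrane proteins of the tight junction, 5 tight junction scaffold and polarity proteins, 2 desmosomal cadherins and 7 proteins of the desmosomal plaque and the cornified envelope. The list was drawn up with earlier results of these data known. All 33 were found among the 26930 genes of the table, and 30 had enough reads to be tested. Cldn1, Cldn2 and Cldn8 were too low for a test.

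The cells were mouse embryonic fibroblasts on day 8 of reprogramming with OKSM, the pluripotency factors Oct4, Klf4, Sox2 and Myc, in a medium named AGi in the labels. One set of cells was WT, which the sample descriptions also call H3. The other carried K36M, a histone H3 in which methionine takes the place of lysine 36, a residue that is normally methylated. Each genotype received either Repsox at 250 nM, a small molecule that blocks the type I TGF-beta receptor, or recombinant TGF-beta 1 at 2.5 ng/ml, which gives 4 groups of 2 libraries. All groups therefore share the factors, the medium and the day, and every library received 1 of the agents, so neither agent can be credited alone with a difference between the media. The labels name neither the promoter that drives K36M or OKSM nor the clone or animals behind a library, and do not tell whether replicate libraries stem from separate cultures or animals. The p-values measure the spread between these libraries, which may be technical.

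Tight junctions close the gap between neighbouring epithelial cells near their apical edge. Claudins form the paracellular barrier and its pores, the occludin family and the JAM-type adhesion molecules sit beside them, and cytoplasmic scaffolds such as ZO-1 tie them to actin, while polarity proteins mark the apical side. Desmosomes lie below and carry mechanical load: the cadherins desmoglein and desmocollin join the cells, and plakoglobin, the plakophilins and desmoplakin connect them to keratin filaments. Fibroblasts lack most of these structures, their reprogramming passes through a mesenchymal-to-epithelial transition, and TGF-beta is a textbook inducer of the opposite change.

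Levels are given as CPM, the usual depth-scaled count, here after scaling each library for composition (trimmed mean of M values, TMM), and a change as a log2 fold change with its standard error (SE) from edgeR's quasi-likelihood model. A gene was called where the Benjamini-Hochberg adjusted p over the 15789 genes tested was below 0.05. Libraries held 10928302 to 15594217 counts, and replicates differed by more than counting error (chi-square per degree of freedom 2.70 to 9.09). The label of a reprogramming intermediate was set against marker lists. The 10 fibroblast markers summed to 5760.0 ± 476 CPM (SD, n = 2) with Repsox and 19082 ± 1087 with TGF-beta in WT, and to 1994 ± 24.2 with Repsox and 2984 ± 111 with TGF-beta in K36M. The 10 pluripotent markers summed, in the same order, to 1089 ± 100.2, 39.3 ± 12.7, 1463 ± 31.3 and 1137 ± 9.68 CPM. No fibroblast or pluripotent marker was at 0 in any group. The fibroblast sum did not reflect the whole list. In WT under TGF-beta, 6 of the 10 rose, among them Col1a2 (log2 fold change 3.62 ± 0.095) and Fn1 (1.73 ± 0.061). The other 4 fell, among them Thy1 (-4.27 ± 0.095). These libraries are bulk RNA, in which fewer cells of a type and less RNA per cell cannot be told apart, and the part of such shifts in the results below was not tested.

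**Figure D1:**
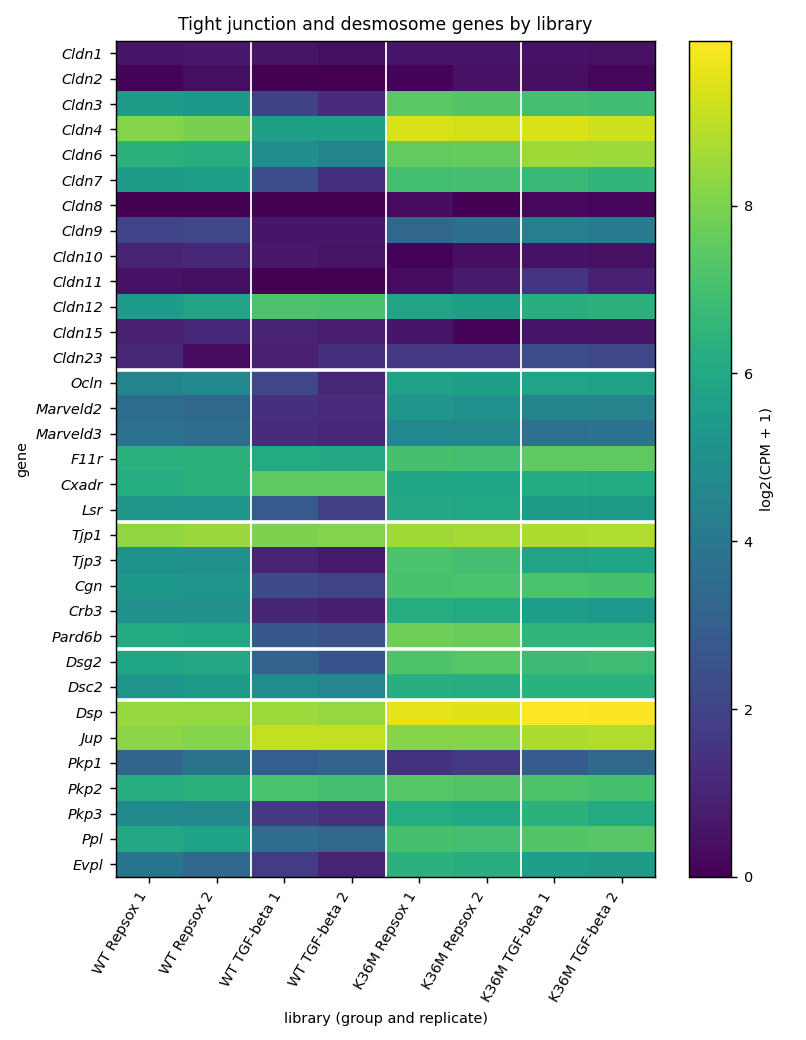
Levels of the 33 genes in the 8 libraries, as log2(CPM + 1), with genes in rows ordered by role and libraries in columns ordered by group. Low levels are dark and high levels bright. The columns of WT under TGF-beta are dark for Cldn3, Cldn7, Tjp3 and Crb3, while Dsp, Jup and Tjp1 stay bright in all 8 libraries.

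Among the claudins, Cldn4, Cldn3, Cldn6 and Cldn7 fell in WT cells under TGF-beta, Cldn3 and Cldn7 to a few CPM, and stood in K36M cells above WT in both conditions. Cldn4, a barrier claudin of simple epithelia (chr5:135420996-135422804, - strand, mm9), was read at 273 and 239.6 CPM in the Repsox libraries of WT, 49.6 and 50.1 in its TGF-beta libraries, 665 and 635 in the Repsox libraries of K36M and 677 and 610.0 in its TGF-beta libraries. The WT libraries under TGF-beta were the lowest and all 4 K36M libraries the highest, with no overlap between WT and K36M. Cldn6, a claudin of embryonic epithelia and pluripotent cells (chr17:23816332-23819413, + strand), was read at 82.8 and 75.9 CPM with Repsox and 28.3 and 21.7 with TGF-beta in WT, and at 188 and 192 with Repsox and 376 and 367 with TGF-beta in K36M. Its highest group was K36M under TGF-beta, above every other library. Cldn3 (chr5:135462084-135463342, + strand), which like Cldn4 is a sealing claudin, was read at 44.5 and 38.9 CPM in the Repsox libraries of WT, 2.84 and 1.36 in its TGF-beta libraries, 169 and 158 in the Repsox libraries of K36M and 130.3 and 119.8 in its TGF-beta libraries.

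Cldn12 was highest where Cldn4 was lowest. This claudin (chr5:5505109-5514958, - strand), which unlike classical claudins lacks the C-terminal motif that binds ZO proteins, was read at 44.6 and 54.9 CPM with Repsox and 143 and 138 with TGF-beta in WT, and at 55.4 and 49.2 with Repsox and 77.7 and 82.7 with TGF-beta in K36M. The 2 WT libraries under TGF-beta were the highest of the 8. Cldn10 and Cldn15, both claudins that form ion pores, stayed near 1 CPM or below: Cldn10 was read at 0.943 and 1.21 CPM in the Repsox libraries of WT, 0.602 and 0.430 in its TGF-beta libraries, 0.0658 and 0.321 in the Repsox libraries of K36M and 0.390 and 0.349 in its TGF-beta libraries. Cldn15 was read at 0.876 and 1.13 CPM with Repsox and 0.946 and 0.717 with TGF-beta in WT, and at 0.460 and 0.0803 with Repsox and 0.468 and 0.436 with TGF-beta in K36M. At this depth such values are a handful of reads (1 to 16 counts for Cldn10 and 1 to 15 for Cldn15), and 1 library can move them.

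Of the remaining claudins, Cldn7 ranged from 1.51 to 129 CPM over the libraries and Cldn9 from 0.502 to 18.9, each lowest in WT under TGF-beta and highest in K36M. Cldn23 ranged from 0.226 to 4.29 CPM. Cldn11, a claudin known from myelin and Sertoli cells, had 0 counts in both WT libraries under TGF-beta and at most 1.87 CPM elsewhere. Of the untested claudins, Cldn1, a barrier claudin of the epidermis, lay between 0.287 and 0.604 CPM in all libraries, Cldn2 reached at most 0.402 and Cldn8 at most 0.263.

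Of the other tight junction membrane proteins, Ocln, Lsr and F11r were lowest in WT under TGF-beta, and Cxadr was highest there. Ocln, which encodes occludin (chr13:101266462-101322673, - strand), was read at 21.5 and 25.5 CPM in the Repsox libraries of WT, 3.35 and 1.08 in its TGF-beta libraries, 50.5 and 47.8 in the Repsox libraries of K36M and 55.0 and 52.2 in its TGF-beta libraries. Lsr, whose product marks the corners where several cells meet (chr7:31742428-31768188, - strand), was read at 38 and 36.1 CPM with Repsox and 6.28 and 2.73 with TGF-beta in WT, and at 62.9 and 61.2 with Repsox and 44.0 and 42.4 with TGF-beta in K36M. For both genes the WT libraries under TGF-beta lay far below all others.

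F11r, the gene of the adhesion molecule JAM-A (chr1:173367666-173394734, + strand), was read at 80.8 and 84.2 CPM in the Repsox libraries of WT, 67.2 and 64.0 in its TGF-beta libraries, 134 and 127 in the Repsox libraries of K36M and 181 and 177 in its TGF-beta libraries. Its levels in the 4 groups did not overlap, but the lowest and the highest library were closer than those of Ocln or Lsr. Cxadr, the coxsackievirus and adenovirus receptor and a component of tight junctions (chr16:78301741-78360030, + strand), was read at 70.8 and 83.3 CPM with Repsox and 179 and 179.6 with TGF-beta in WT, and at 58.4 and 57.6 with Repsox and 69.8 and 68.1 with TGF-beta in K36M. Both WT libraries under TGF-beta were above all others. Marveld2 (tricellulin) ranged from 1.36 to 35.6 CPM and Marveld3 from 1.15 to 24.4, both lowest in WT under TGF-beta and highest in K36M under Repsox.

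The scaffold and polarity genes held the steepest contrasts. Tjp3, which encodes ZO-3 (chr10:80735952-80754012, - strand), was read at 32.8 and 32.1 CPM in the Repsox libraries of WT, 0.946 and 0.646 in its TGF-beta libraries, 139 and 125 in the Repsox libraries of K36M and 55.6 and 57.7 in its TGF-beta libraries. Crb3, an apical polarity protein (chr17:57198528-57205341, + strand), was read at 31.5 and 30.9 CPM with Repsox and 1.03 and 0.789 with TGF-beta in WT, and at 71.6 and 66.3 with Repsox and 45.4 and 40.3 with TGF-beta in K36M. Both genes were close to 1 CPM in WT under TGF-beta and above 30 CPM in every other library. Pard6b, an adaptor of the Par polarity complex (chr2:167906504-167926703, + strand), was read at 66.5 and 61.5 CPM in the Repsox libraries of WT, 5.68 and 4.52 in its TGF-beta libraries, 214 and 204 in the Repsox libraries of K36M and 89.5 and 89.7 in its TGF-beta libraries.

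Cgn, which encodes cingulin, a link from the junction to actomyosin (chr3:94464507-94590414, - strand), was read at 38.7 and 36.3 CPM with Repsox and 3.96 and 3.16 with TGF-beta in WT, and at 136 and 140.1 with Repsox and 141 and 135 with TGF-beta in K36M. The K36M libraries did not separate by medium, and the WT libraries did. Tjp1, the gene of ZO-1 (chr7:72441051-72516125, - strand), which also serves junctions of non-epithelial cells, was read at 313 and 356 CPM in the Repsox libraries of WT, 255 and 274 in its TGF-beta libraries, 375 and 396 in the Repsox libraries of K36M and 421 and 443 in its TGF-beta libraries. It was high in every library, and its range was narrow beside that of Tjp3.

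In desmosomes the cadherins fell in WT under TGF-beta, and the plaque genes split. Dsg2, desmoglein 2, the desmoglein of simple epithelia, was read at 58.3 and 63.1 CPM with Repsox and 7.83 and 4.74 with TGF-beta in WT, and at 145 and 159 with Repsox and 112 and 115 with TGF-beta in K36M. Dsc2, its desmocollin partner, was read at 37.0 and 42.3 CPM in the Repsox libraries of WT, 27.6 and 23.7 in its TGF-beta libraries, 74.3 and 73.3 in the Repsox libraries of K36M and 80.9 and 82.0 in its TGF-beta libraries. Both lie on chromosome 18. The WT libraries under TGF-beta were the lowest for both genes, by a wide margin for Dsg2 and a narrow one for Dsc2.

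Dsp, which encodes desmoplakin, the bridge to keratins (chr13:38243197-38290446, + strand), was read at 341 and 333 CPM with Repsox and 361 and 336 with TGF-beta in WT, and at 742 and 719 with Repsox and 998 and 962 with TGF-beta in K36M. The 4 WT libraries overlapped across media, and the K36M libraries stood above them. Jup, plakoglobin, an armadillo protein that also works in adherens junctions (chr11:100230272-100259077, - strand), was read at 303 and 278 CPM in the Repsox libraries of WT, 525 and 533 in its TGF-beta libraries, 281 and 286 in the Repsox libraries of K36M and 432 and 439 in its TGF-beta libraries. It was higher under TGF-beta in both genotypes and nearly equal in WT and K36M under Repsox. Pkp2, a plakophilin known from heart and simple epithelia (chr16:16213411-16272805, + strand), was read at 75.7 and 83.3 CPM with Repsox and 139.7 and 124 with TGF-beta in WT, and at 159 and 152 with Repsox and 143 and 134 with TGF-beta in K36M. For Pkp2 the libraries of WT under Repsox were the lowest and those of K36M under Repsox the highest.

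Ppl, periplakin (chr16:5086384-5132574, - strand), and Evpl, envoplakin (chr11:116081873-116099391, - strand), are plakins of the cornified envelope that attach keratins to the membrane. Ppl was read at 64.0 and 54.4 CPM in the Repsox libraries of WT, 10.7 and 9.11 in its TGF-beta libraries, 132 and 127 in the Repsox libraries of K36M and 157 and 166 in its TGF-beta libraries. Evpl was read at 13.7 and 9.13 CPM with Repsox and 2.32 and 0.933 with TGF-beta in WT, and at 81.2 and 74.3 with Repsox and 48.6 and 44.0 with TGF-beta in K36M. Both were lowest in WT under TGF-beta and highest in K36M, Ppl under TGF-beta and Evpl under Repsox. Pkp1, the plakophilin of stratified epithelia (chr1:137767972-137815784, - strand), had another pattern, at 8.42 and 13.2 CPM in the Repsox libraries of WT, 6.97 and 8.04 in its TGF-beta libraries, 1.78 and 2.25 in the Repsox libraries of K36M and 6.56 and 9.78 in its TGF-beta libraries. Its low libraries were those of K36M under Repsox. Pkp3 ranged from 1.65 CPM in WT under TGF-beta to 83.5 CPM in K36M under TGF-beta.

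**Figure D2:**
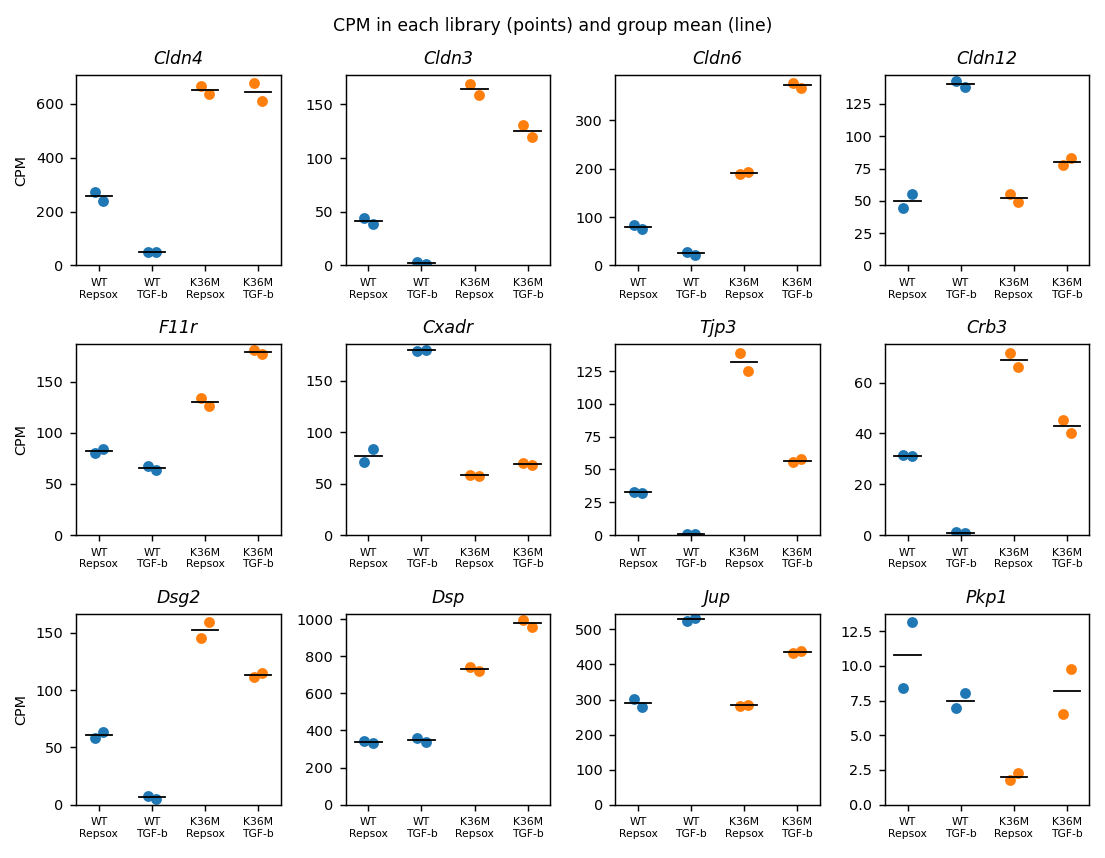
CPM on a linear axis from 0 in each of the 8 libraries for 12 genes from all 5 roles, with 1 panel per gene, 1 point per library (blue WT, orange K36M) and a line at the group mean. Tjp3 drops to 0.946 and 0.646 CPM in WT under TGF-beta, while Cldn12 and Cxadr have their highest points there and Pkp1 its lowest in K36M under Repsox.

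Per kilobase of exon, which lets genes be compared with each other, Cldn4 had the highest level of the 33 in 3 of the 4 groups. In WT under Repsox the order began with Cldn4 (142 CPM per kb), followed by Cldn6 (52.7 CPM per kb), Tjp1 (45.5 CPM per kb) and Jup (45.1 CPM per kb). In WT under TGF-beta it began with Jup (82.2 CPM per kb), Dsp (36.2 CPM per kb), Tjp1 (36 CPM per kb) and Cldn12 (34.5 CPM per kb). In K36M under Repsox the leading genes were Cldn4 (359 CPM per kb), Cldn3 (130.2 CPM per kb), Cldn6 (126 CPM per kb) and Dsp (75.9 CPM per kb). In K36M under TGF-beta they were Cldn4 (356 CPM per kb), Cldn6 (247 CPM per kb), Dsp (102 CPM per kb) and Cldn3 (99.3 CPM per kb). Some neighbours in these orders did not differ beyond the spread of their 2 libraries: Tjp1 and Jup in WT under Repsox, Dsp, Tjp1 and Cldn12 in WT under TGF-beta, Cldn3 and Cldn6 in K36M under Repsox, and Dsp and Cldn3 in K36M under TGF-beta. Claudins thus led in 3 groups, and in WT under TGF-beta the leading 3 were plakoglobin, desmoplakin and ZO-1.

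TGF-beta against Repsox in WT cells asks what the pathway's activation or block does to junction genes without the histone mutant. Most of the tested genes were lower under TGF-beta: 21 of 30 fell and 4 rose, where 33.4% of all genes tested fell and 29% rose. The median log2 fold change of the 30 was -2.60 (-2.48 with the 0 of Cldn11 set to a floor of 3 counts), against -0.07 over all genes tested. The 2 libraries of one group did not overlap those of the other for 27 of the 30, as for 79.4% of all genes. By at least 2-fold, 18 fell and 2 rose, where 18.3% and 12.3% of all genes did. By role, 6 of 10 claudins, 5 of 6 other membrane proteins, all 5 scaffold and polarity genes, both desmosomal cadherins and 3 of 7 plaque and envelope genes fell.

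The steepest falls among well expressed members were in Tjp3, Crb3 and Cldn3. Tjp3 was lower by 41.0-fold (log2 fold change -5.36 ± 0.19, adjusted p = 1.33e-16). Crb3 was lower by 34.4-fold (log2 fold change -5.10 ± 0.20, adjusted p = 5.74e-16), and Cldn3 by 20.4-fold (log2 fold change -4.35 ± 0.18, adjusted p = 1.94e-15). Next to them, Cldn7 fell 16.0-fold (log2 fold change -4.0 ± 0.20), Pkp3 13.0-fold (-3.70 ± 0.19) and Pard6b 12.6-fold (-3.66 ± 0.12). Cgn fell 10.6-fold (-3.41 ± 0.13) and Dsg2 9.81-fold (-3.29 ± 0.14). Cldn4 fell 5.14-fold (-2.36 ± 0.081), Cldn6 3.19-fold (-1.68 ± 0.10) and Ppl 6.02-fold (-2.59 ± 0.12). The falls of Dsc2 (1.55-fold, -0.63 ± 0.11), Tjp1 (1.26-fold, -0.34 ± 0.073) and F11r (1.26-fold, -0.33 ± 0.083) passed the test and were small.

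A single library moved some of these sizes. For Ocln, which fell 11.0-fold (-3.46 ± 0.23), the log2 fold change was -4.43 without WT TGF-beta library 1 and -2.81 without library 2. For Cldn7 (-4.0 ± 0.20) it was -4.88 and -3.38. Without library 1, Lsr (-3.08 ± 0.19) gave -3.75 and Evpl (-2.87 ± 0.27) gave -3.60. All 4 genes passed the test in each case. Cldn11 had 0 counts under TGF-beta against 10 under Repsox. It was 3.03-fold lower with the 0 set to a floor of 3 counts over the group. The counting error of the 10 reads was left out of that value. The call of Cldn11 was lost without either WT TGF-beta library.

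The 4 genes that rose in WT under TGF-beta were Cldn12, Cxadr, Jup and Pkp2. Cldn12 was higher by 2.83-fold (log2 fold change 1.5 ± 0.10, adjusted p = 6.62e-12) and Cxadr by 2.33-fold (log2 fold change 1.22 ± 0.087, adjusted p = 3.38e-11). Jup was higher by 1.82-fold (log2 fold change 0.87 ± 0.066, adjusted p = 1.01e-10) and Pkp2 by 1.66-fold (log2 fold change 0.73 ± 0.086, adjusted p = 1.39e-07). Dsp gave 0.046 ± 0.063 (adjusted p = 0.537), and with plain library totals as the scaling it was -0.16 (adjusted p = 0.0237). Pkp1 gave -0.52 ± 0.24 (adjusted p = 0.0661) and passed the test without WT Repsox library 1 (-0.81). It also passed with plain library totals (adjusted p = 0.0155), upper-quartile factors (0.0433), no filter on low counts (0.0284) and a replicate block (0.0371). Cldn23 (0.83 ± 0.57) passed without WT Repsox library 1 (2.36). Cldn10 and Cldn15 did not pass.

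In K36M cells the same change of medium moved the genes less far and in both directions. Of 30, 10 rose and 10 fell under TGF-beta, where 24.7% of all genes tested rose and 23.6% fell, and the median log2 fold change was 0.15 against 0.0091 over all genes. Groups did not overlap for 26 of 30, as for 75.1% of all genes. Only 2 members rose and 2 fell by at least 2-fold, where 10.7% and 8.25% of all genes did. Tjp3 fell 2.33-fold (log2 fold change -1.22 ± 0.090, adjusted p = 1.48e-10) and Pard6b 2.33-fold (log2 fold change -1.22 ± 0.085, adjusted p = 5.72e-11). Pkp1 rose 4.06-fold (log2 fold change 2.02 ± 0.30, adjusted p = 6.64e-06). The other member past 2-fold was Cldn11 (1.64 ± 0.67, adjusted p = 0.0477), a call lost without each of 7 of the 8 libraries, all but K36M TGF-beta library 2 (adjusted p = 0.0651 to 0.463).

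Cldn6 rose 1.95-fold (log2 fold change 0.97 ± 0.087, adjusted p = 4.14e-09), with smaller increases in Jup (1.54-fold, 0.62 ± 0.066), Cldn12 (1.53-fold, 0.61 ± 0.10), F11r (1.37-fold, 0.46 ± 0.079), Dsp (1.34-fold, 0.42 ± 0.062) and Ppl (1.25-fold, 0.32 ± 0.088). Cxadr was 1.19-fold higher (0.25 ± 0.091, adjusted p = 0.0285), and its call was lost without any one of the 4 K36M libraries (adjusted p = 0.073 to 0.14). Crb3 (-0.69 ± 0.10), Evpl (-0.75 ± 0.14), Lsr (-0.52 ± 0.14), Dsg2 (-0.43 ± 0.10) and Cldn3 (-0.39 ± 0.10) fell. DESeq2 did not call Lsr (adjusted p = 0.228), Evpl (0.07) or Cldn7 (0.547).

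Some of the K36M calls rested on 1 library. Cldn7 (-0.36 ± 0.12) lost its call without K36M Repsox library 2 (adjusted p = 0.0926) or K36M TGF-beta library 2 (0.166). Ppl lost its call without the same libraries (adjusted p = 0.0601 and 0.0541), and Cldn9 (0.77 ± 0.19) without K36M Repsox library 1 (0.0586). Cgn (-0.0038 ± 0.081, adjusted p = 0.998), Cldn4 (-0.015 ± 0.072, adjusted p = 0.882), Ocln (0.12 ± 0.14) and Dsc2 (0.14 ± 0.093) did not pass the test. Neither did Tjp1 (0.16 ± 0.073, adjusted p = 0.0671) or Pkp2 (-0.17 ± 0.084, adjusted p = 0.108), which both passed when either WT Repsox library was left out (adjusted p = 0.0146 and 0.0114 for Tjp1, 0.0363 and 0.0334 for Pkp2). Pkp3 (0.20 ± 0.11) passed without K36M TGF-beta library 2 (adjusted p = 0.0359).

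The 2 medium effects come from separate libraries and can be set side by side. Of the 21 genes that fell in WT, 10 also fell in K36M (47.6%, against 35.7% of all genes that fell in WT), and these were the only members that fell there. They were Cldn3, Cldn7, Marveld2, Marveld3, Lsr, Tjp3, Crb3, Pard6b, Dsg2 and Evpl. Another 5 rose in K36M, namely Cldn6, Cldn9, Cldn11, F11r and Ppl (23.8%, against 18.7% of all genes that fell in WT). The other 6, Cldn4, Ocln, Tjp1, Cgn, Dsc2 and Pkp3, were not called there (28.6%, against 45.6%). Of the 4 that rose in WT, 3 rose in K36M too, Cldn12, Cxadr and Jup, as did 40.5% of all genes that rose in WT. Dsp and Pkp1 were called, as higher, in K36M and not in WT, and Cldn10, Cldn15 and Cldn23 were called in neither genotype.

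The difference between the 2 medium effects was tested directly as the interaction of medium and genotype, coded as the log2 fold change in K36M minus that in WT. It was above 0 for 23 of 30 members and below 0 for 4, where it was above 0 for 28.5% and below 0 for 22.6% of all genes tested. In either direction it was called for 27, and for 51% of all genes. It was at least 1 on the log2 scale, a 2-fold difference, for 19 members and at most -1 for 0 members, where 17.6% and 9.18% of all genes were. The median was 2.39, against 0.09 over all genes. The largest among well expressed members were Crb3 (4.42 ± 0.24, adjusted p = 9.87e-13), Tjp3 (4.13 ± 0.23, adjusted p = 2.04e-12) and Cldn3 (3.96 ± 0.21, adjusted p = 9.67e-13). For Cgn (3.40 ± 0.16), Ocln (3.58 ± 0.28) and Cldn4 (2.35 ± 0.11) nearly the whole interaction was the fall in WT. For Tjp3 and Pard6b (2.44 ± 0.15), both genotypes fell and WT fell further.

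The interaction was below 0 for Cldn12 (-0.88 ± 0.14, adjusted p = 1.28e-05), Cxadr (-0.97 ± 0.13, adjusted p = 1.02e-06), Pkp2 (-0.90 ± 0.12, adjusted p = 1.67e-06) and Jup (-0.25 ± 0.093, adjusted p = 0.0307), which all rose in WT. Cldn12, Cxadr and Jup rose less in K36M, and Pkp2 was not called there. The call of Jup was lost without either WT TGF-beta library or any K36M library (adjusted p = 0.0611 to 0.113) and with plain library totals (adjusted p = 0.834). That scaling moves the median interaction of all genes by 0.22. Without WT TGF-beta library 1 the interaction was 4.55 for Ocln, 4.52 for Cldn7, 3.23 for Lsr and 2.86 for Evpl, and without library 2 it was 2.93 for Ocln and 3.02 for Cldn7.

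**Figure D3:**
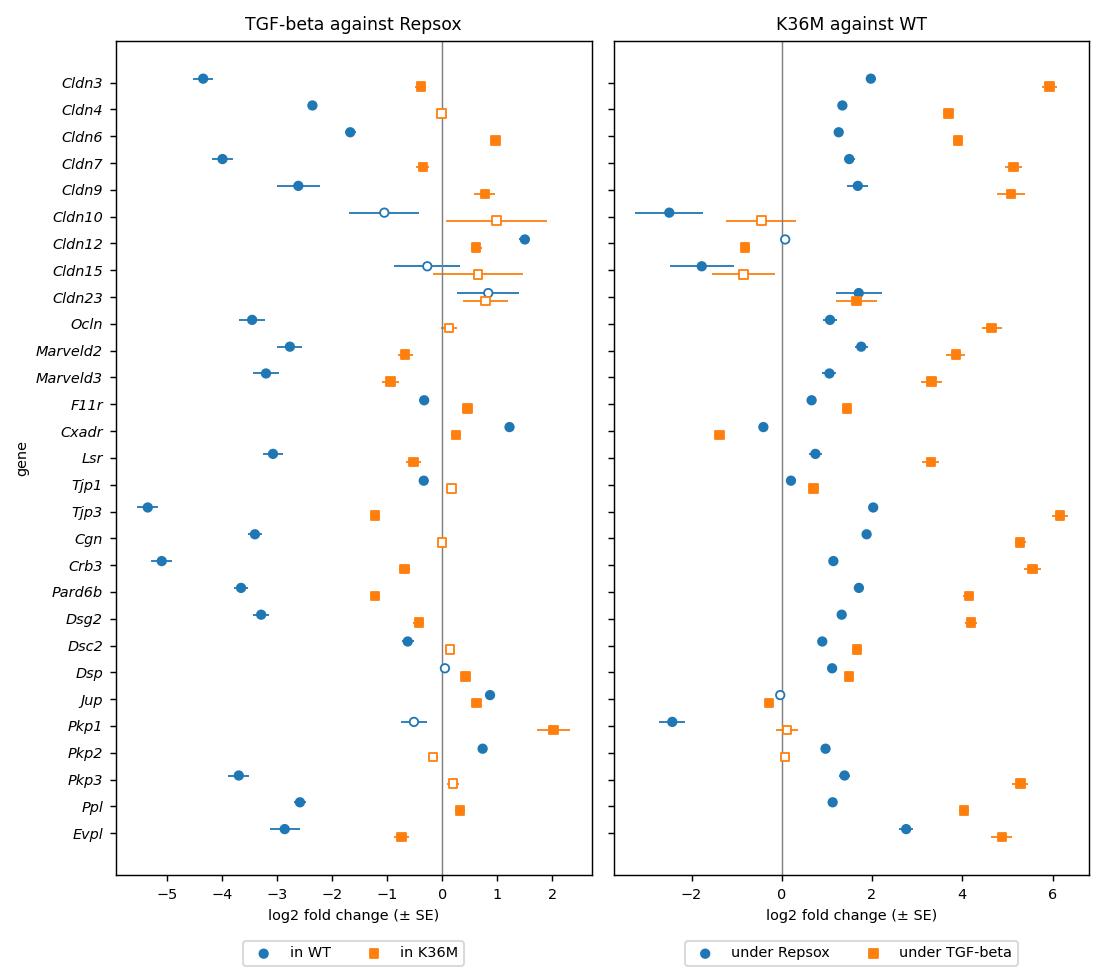
Log2 fold change with SE for 29 members, TGF-beta against Repsox on the left (circles WT, squares K36M) and K36M against WT on the right (circles under Repsox, squares under TGF-beta), with open symbols where the gene was not called. Cldn11 is left out because its fitted value depends on the prior count. Circles on the left reach -5.36 (Tjp3) while squares lie between -1.22 and 2.02, and on the right the squares lie beyond the circles for most genes.

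K36M against WT under Repsox asks what the mutant changes when TGF-beta signalling is blocked. Of 30 members, 23 were higher in K36M and 4 lower, where 28.8% of all genes tested were higher and 26.9% lower. The median log2 fold change was 1.12, against 0.04 over all genes, and groups did not overlap for 27 of 30, as for 75.4% of all genes. At least 2-fold higher were 18 and lower 3, where 12% and 12.4% of all genes were. Evpl was higher by 6.76-fold (log2 fold change 2.76 ± 0.16, adjusted p = 1.58e-12), Tjp3 by 4.07-fold (log2 fold change 2.03 ± 0.094, adjusted p = 3.77e-14) and Cldn3 by 3.93-fold (log2 fold change 1.97 ± 0.11, adjusted p = 4.8e-13). Cgn was 3.68-fold higher (1.88 ± 0.088), Pard6b 3.27-fold (1.71 ± 0.086), Cldn4 2.54-fold (1.34 ± 0.074) and Dsg2 2.51-fold (1.33 ± 0.10). Dsp was 2.17-fold higher (1.12 ± 0.063), Crb3 2.21-fold (1.14 ± 0.11), Ocln 2.10-fold (1.07 ± 0.15) and Pkp2 1.96-fold (0.97 ± 0.086).

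The 4 lower genes were Pkp1, Cxadr, Cldn10 and Cldn15. Pkp1 was lower by 5.37-fold (log2 fold change -2.43 ± 0.29, adjusted p = 2.27e-07) and Cxadr by 1.33-fold (log2 fold change -0.41 ± 0.090, adjusted p = 0.000563). Cldn10 (-2.49 ± 0.76, adjusted p = 0.00774) lost its call without WT library 2 (adjusted p = 0.0555) or K36M library 1 (0.163). Cldn15 (-1.77 ± 0.71, adjusted p = 0.0374) lost its call under DESeq2 (adjusted p = 0.117) and without each of 7 of the 8 libraries (adjusted p = 0.0538 to 0.309). In size, Cldn10 gave -1.71 and -3.84 without K36M library 1 and 2, and Cldn15 -3.49 and -1.10. With WT library 2 left out, 2 members were called lower. Among the higher genes, Tjp1 (0.20 ± 0.073) lost its call without WT library 1 (adjusted p = 0.182) or K36M library 2 (0.176), with plain library totals (0.050004), with no filter on low counts (0.0694) and with only the 2 groups compared (0.152). So did Cldn23 (1.71 ± 0.51) without WT library 2 (1.03, adjusted p = 0.106), while it was 3.23 without library 1. Cldn12 (0.076 ± 0.10, adjusted p = 0.549) and Jup (-0.034 ± 0.066, adjusted p = 0.688) did not pass, and Cldn12 did without WT library 2 (adjusted p = 0.0469).

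Under TGF-beta the difference between the genotypes was wider. Of 30 members, 23 were higher in K36M and 3 lower, where 36.4% of all genes tested were higher and 33.9% lower, and 22 members were at least 2-fold higher and 1 lower, as were 22.4% and 16.8% of all genes. The median log2 fold change was 3.77 (3.63 with the 0 of Cldn11 set to a floor of 3 counts), against 0.05 over all genes, and groups did not overlap for 28 of 30, as for 85.2% of all genes. Tjp3 was higher by 71.5-fold (log2 fold change 6.16 ± 0.18, adjusted p = 3.48e-18), Cldn3 by 61.1-fold (log2 fold change 5.93 ± 0.17, adjusted p = 1.98e-18) and Crb3 by 47.2-fold (log2 fold change 5.56 ± 0.19, adjusted p = 5.57e-17). Cgn was 39.0-fold higher (5.28 ± 0.12), Dsg2 18.3-fold (4.20 ± 0.14), Pard6b 17.7-fold (4.15 ± 0.12) and Ppl 16.4-fold (4.04 ± 0.11). Cldn6 was 15.0-fold higher (3.90 ± 0.10) and Cldn4 12.9-fold (3.69 ± 0.084). Dsc2 was 3.18-fold higher (1.67 ± 0.10), Dsp 2.82-fold (1.49 ± 0.063), F11r 2.73-fold (1.45 ± 0.082) and Tjp1 1.63-fold (0.71 ± 0.073).

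Cldn11 had 34 counts in K36M against 0 in WT, 11.9-fold higher with the 0 set to a floor of 3 counts over the group and the 34 taken as observed. Without WT TGF-beta library 1 the log2 fold change was 5.62 for Ocln (4.65 ± 0.22 with all libraries), 6.01 for Cldn7 (5.14 ± 0.19), 3.97 for Lsr (3.30 ± 0.19) and 5.61 for Evpl (4.88 ± 0.23). Without library 2 it was 4.0 for Ocln and 4.52 for Cldn7. The 3 lower genes were Cxadr, lower by 2.60-fold (log2 fold change -1.38 ± 0.088, adjusted p = 3.91e-12), Cldn12, by 1.75-fold (log2 fold change -0.81 ± 0.095, adjusted p = 1.01e-07), and Jup, by 1.21-fold (log2 fold change -0.28 ± 0.065, adjusted p = 0.000615). With plain library totals, which move the median of all genes by 0.20, the value for Jup was -0.081 (adjusted p = 0.245) and Pkp2 was called higher (0.27, adjusted p = 0.00942). With TMM, Pkp2 (0.070 ± 0.085, adjusted p = 0.472) and Pkp1 (0.11 ± 0.25, adjusted p = 0.704) did not pass, nor did Cldn10 and Cldn15.

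The 2 genotype comparisons use separate libraries, but each shares libraries with the medium comparisons, so that the values of the latter are no independent evidence for the former. In particular the WT libraries under TGF-beta enter the medium effect in WT, the genotype effect under TGF-beta and the interaction.

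**Figure D4:**
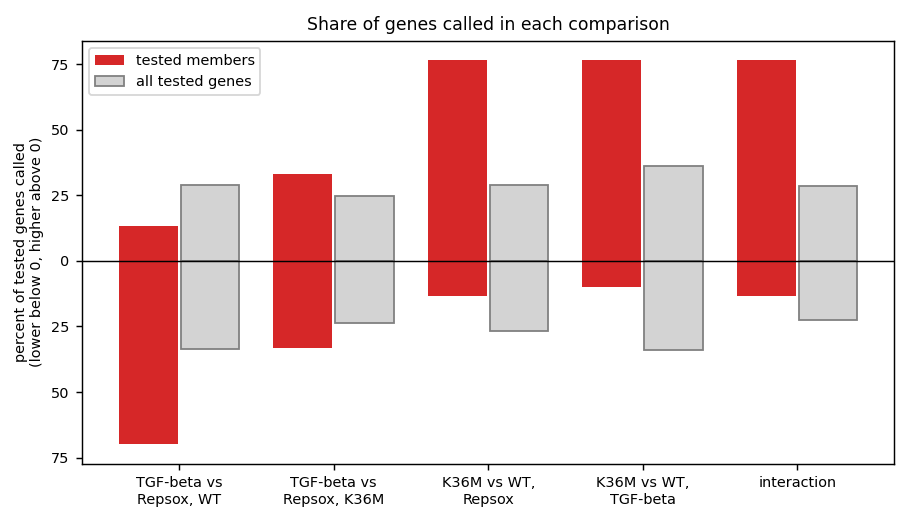
Percent of tested genes called higher and called lower in the 4 comparisons and the interaction, for the 30 tested members and for all 15789 genes. The members called lower in WT under TGF-beta are 21 of 30, against 33.4% of all genes, and in K36M the members split into 10 higher and 10 lower.

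The stretch of 250 bases upstream of each start was searched for 4 short motifs, on both strands. RefSeq promoters (GRCm38.p6) were held for 21 of the 33 genes, as 29 starts, and each of the 29 stretches matched mm9 exactly once. Cldn8, Cldn9, Cldn23, Marveld3, Cxadr, Dsg2, Dsc2, Pkp1, Pkp2, Pkp3, Ppl and Evpl had no entry. The E2-box CACCTG, which reads CAGGTG on the other strand and is the sequence that Snail and Zeb repressors are known to bind, was present for 9 of 21 members (42.9%), against 19.4% of 27025 genes. The 9 were Cldn4, Cldn6, Cldn7, Ocln, F11r, Lsr, Tjp3, Crb3 and Pard6b, and each of them fell in WT under TGF-beta. With or without the motif, 21 of the 30 tested members and 33.4% of all genes tested fell there. For Cldn7 and Ocln the stretch at the annotated gene start had no match. Their matches lay only before another start inside the gene, where 221 and 155 of the 250 bases are in annotated exons. For Crb3 both stretches lie inside the annotated gene, with 60 and 88 bases in annotated exons, and the stretch of Lsr lies inside its gene too. Of the 12 without a match, 10 were tested, and 5 fell, 2 rose and 3 were not called. A match is a run of letters and not a bound site, and no test was made. The 27025 are all genes with a RefSeq promoter held, tested or not. They were not matched to the members for number of starts or GC content. The share that fell among all genes with an E2-box was not computed.

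The Grainyhead-type motif AACCNGTT was found for Cgn (1 of 21, against 2.00% of genes), the Klf-type motif GGGTGTGG for Tjp3 and Pard6b (2 of 21, against 3.68%) and the TATA motif TATAAA for Cldn2 and Marveld2 (2 of 21, against 14.3%). Median GC content of the 250 bases was 60.8% for the members and 52.4% for all genes.

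Printed here are the stretches of 5 genes with the E2-box that fell in WT under TGF-beta, from each class of tight junction gene, with capitals marking the E2-box on either strand. They lie, in mm9, at chr5:135422805-135423054, - strand (Cldn4), chr17:23816082-23816331, + strand (Cldn6), chr10:80754013-80754262, - strand (Tjp3), chr2:167906254-167906503, + strand (Pard6b) and chr7:31758489-31758738, - strand (Lsr), are written 5′ to 3′ along the gene and end at the base before the RefSeq start. Tjp3 has 2 RefSeq starts, each with the E2-box, and the one shown is that of the annotated gene. The start of Lsr lies inside the gene as annotated in GENCODE vM1.
Cldn4: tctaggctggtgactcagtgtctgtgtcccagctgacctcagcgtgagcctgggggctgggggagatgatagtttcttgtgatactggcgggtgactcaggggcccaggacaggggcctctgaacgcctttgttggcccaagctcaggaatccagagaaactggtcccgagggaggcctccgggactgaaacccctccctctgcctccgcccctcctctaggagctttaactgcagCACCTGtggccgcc
Cldn6: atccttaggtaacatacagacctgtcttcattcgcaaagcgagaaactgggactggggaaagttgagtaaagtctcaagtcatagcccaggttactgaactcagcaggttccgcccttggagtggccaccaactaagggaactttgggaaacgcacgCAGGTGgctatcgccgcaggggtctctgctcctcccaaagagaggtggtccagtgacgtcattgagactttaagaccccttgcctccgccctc
Tjp3: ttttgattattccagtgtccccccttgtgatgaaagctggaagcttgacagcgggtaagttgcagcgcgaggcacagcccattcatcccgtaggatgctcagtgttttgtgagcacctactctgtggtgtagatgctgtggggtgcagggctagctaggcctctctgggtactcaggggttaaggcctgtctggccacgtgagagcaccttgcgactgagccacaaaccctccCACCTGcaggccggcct
Pard6b: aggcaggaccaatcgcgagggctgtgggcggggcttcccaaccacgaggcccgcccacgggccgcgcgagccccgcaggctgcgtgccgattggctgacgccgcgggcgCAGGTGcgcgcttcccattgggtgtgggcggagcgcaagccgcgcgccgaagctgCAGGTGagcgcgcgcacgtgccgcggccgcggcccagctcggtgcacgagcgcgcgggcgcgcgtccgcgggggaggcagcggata
Lsr: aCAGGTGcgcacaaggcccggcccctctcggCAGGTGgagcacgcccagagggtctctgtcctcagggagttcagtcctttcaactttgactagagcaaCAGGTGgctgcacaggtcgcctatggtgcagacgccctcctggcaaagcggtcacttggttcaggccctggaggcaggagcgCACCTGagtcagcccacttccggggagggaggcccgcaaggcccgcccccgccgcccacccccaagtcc

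For contrast, 3 stretches without the E2-box belong to Cldn3, which fell in WT under TGF-beta too, to Jup, which rose, and to Dsp, which was not called. They lie at chr5:135461834-135462083, + strand (Cldn3), chr11:100259105-100259354, - strand (Jup) and chr13:38242913-38243162, + strand (Dsp).
Cldn3: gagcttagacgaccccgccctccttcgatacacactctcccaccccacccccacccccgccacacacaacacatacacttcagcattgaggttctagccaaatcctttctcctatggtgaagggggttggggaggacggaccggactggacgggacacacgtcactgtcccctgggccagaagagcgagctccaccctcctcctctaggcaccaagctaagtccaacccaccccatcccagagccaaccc
Jup: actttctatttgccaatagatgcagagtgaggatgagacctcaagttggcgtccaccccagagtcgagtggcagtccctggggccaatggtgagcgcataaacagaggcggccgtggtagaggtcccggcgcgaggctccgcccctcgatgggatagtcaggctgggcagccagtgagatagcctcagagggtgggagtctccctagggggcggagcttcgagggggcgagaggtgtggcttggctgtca
Dsp: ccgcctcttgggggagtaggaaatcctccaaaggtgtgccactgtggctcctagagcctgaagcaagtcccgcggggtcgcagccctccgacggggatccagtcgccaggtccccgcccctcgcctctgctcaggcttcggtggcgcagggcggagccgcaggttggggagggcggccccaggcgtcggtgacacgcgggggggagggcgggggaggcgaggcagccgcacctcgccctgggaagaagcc

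In all, 3 pairs of members are neighbours in mm9. Cldn3 and Cldn4 are 39279 bp apart, Ocln and Marveld2 43238 bp, and Cldn6 and Cldn9 138 bp with their ends facing each other. Cldn6 and Cldn9 had the same order of groups, from WT under TGF-beta (lowest) to K36M under TGF-beta (highest), and Cldn9 was the far lower gene. The strand setting of the counting is not given in the sources used here, so that reads running past the end of Cldn6 cannot be told apart from reads of Cldn9. For the same reason, reads in the parts that 9 members share with another gene are uncertain: Cldn3, Cldn10, Marveld2, Lsr, Tjp3, Cgn, Crb3, Dsg2 and Dsp.

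Other genes of the same structures did not share one direction. Tight junction genes outside the 33 include further claudins, ZO-2, the angiomotins and the Crumbs and Par partners. Of 25 tested, 9 rose and 9 fell in WT under TGF-beta (median log2 fold change -0.11), 8 rose and 6 fell in K36M (0.064), while against WT, 12 were higher and 6 lower in the mutant with Repsox (0.29), and 9 were higher and 7 lower with TGF-beta (0.094). In WT under TGF-beta, Amotl1 (1.54 ± 0.075) and Amotl2 (1.07 ± 0.068), angiomotin-like scaffolds, and Mpdz (2.06 ± 0.10), a multi-PDZ scaffold, rose. Under TGF-beta, Mpdz (-2.82 ± 0.11) and the adhesion molecule Jam2 (-2.36 ± 0.14) were lower in K36M and Cgnl1 (2.57 ± 0.11), paracingulin, was higher. Desmosome genes outside the 33 were few. Of 4 tested of 9 listed, 2 rose and 1 fell in WT under TGF-beta (median log2 fold change 0.96), 4 rose and 0 fell in K36M (1.78), while against WT, 0 were higher and 2 lower in the mutant with Repsox (-0.31), and 2 were higher and 1 lower with TGF-beta (0.72). They were led by Perp (1.78 ± 0.081), a desmosomal membrane protein, which rose in WT under TGF-beta, with Dsg3 (2.48 ± 0.49) rising from a low level and Pkp4 (-0.27 ± 0.079) falling. The shares of all genes given above are the background for these counts.

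Adherens junctions, which lie between the tight junction and the desmosome, showed the exchange of cadherins. Of 12 tested, 4 rose and 6 fell in WT under TGF-beta (median log2 fold change -0.32), 5 rose and 5 fell in K36M (-0.048), while against WT, 7 were higher and 4 lower in the mutant with Repsox (0.42), and 6 were higher and 4 lower with TGF-beta (0.10). Cdh1, E-cadherin, fell by 4.41 ± 0.14 on the log2 scale in WT under TGF-beta, while Cdh2, N-cadherin (3.22 ± 0.10), and Pvrl3, nectin 3 (2.41 ± 0.12), rose. Under TGF-beta Cdh1 was higher (5.14 ± 0.14) and Cdh2 (-5.27 ± 0.12) and Cdh11 (-5.29 ± 0.18) lower in K36M than in WT. Keratins are the filaments that desmosomes hold. Of 7 tested, 1 rose and 5 fell in WT under TGF-beta (median log2 fold change -3.36), 2 rose and 3 fell in K36M (0.061), while against WT, 6 were higher and 0 lower in the mutant with Repsox (1.46), and 7 were higher and 0 lower with TGF-beta (5.33). Krt18 (-5.60 ± 0.10), Krt8 (-4.88 ± 0.094) and Krt7 (-7.43 ± 0.20) fell in WT under TGF-beta, and were higher in K36M (6.10 ± 0.10, 5.33 ± 0.095 and 7.99 ± 0.20) in that medium.

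Transcription and splicing regulators of epithelia mostly fell in WT under TGF-beta and were mostly higher in K36M, with exceptions. Of 15 tested, 2 rose and 12 fell in WT under TGF-beta (median log2 fold change -3.48), 3 rose and 7 fell in K36M (-0.35), while against WT, 10 were higher and 3 lower in the mutant with Repsox (0.95), and 14 were higher and 1 lower with TGF-beta (3.86). In WT under TGF-beta, Tfap2c (-5.83 ± 0.14), Elf3 (-6.58 ± 0.22) and the splicing factor Esrp1 (-4.35 ± 0.21) fell, and the same 3 had the smallest adjusted p among those higher in K36M under TGF-beta (5.17 ± 0.14, 6.87 ± 0.22 and 5.54 ± 0.20). Under Repsox the 3 of smallest adjusted p were Elf3, higher in K36M (1.71 ± 0.10), and Tfap2a (-3.49 ± 0.20) and Ehf (-4.38 ± 0.41), which were 11.2-fold and 20.8-fold lower. The Snail, Zeb and Twist genes, known as repressors of junction genes, were low in K36M in both media. Of 6 tested, 1 rose and 3 fell in WT under TGF-beta (median log2 fold change -0.69), 2 rose and 0 fell in K36M (0.42), while against WT, 0 were higher and 5 lower in the mutant with Repsox (-4.58), and 0 were higher and 5 lower with TGF-beta (-3.43). Zeb2 was 20.1-fold lower in K36M under Repsox (-4.33 ± 0.16) and 18.3-fold lower under TGF-beta (-4.20 ± 0.14). Twist1 (-4.82 ± 0.24 and -3.44 ± 0.26) and Snai2 (-6.56 ± 0.41 and -3.58 ± 0.36) were lower too. In WT under TGF-beta Zeb2 rose 1.68-fold (0.75 ± 0.11). Twist1 (-1.04 ± 0.17), Twist2 (-4.59 ± 0.34) and Snai2 fell there, each by at least 2-fold. The summed level of the 6 was 168 ± 7.35 CPM in WT under Repsox and 159.8 ± 16.5 under TGF-beta. In K36M it was 16.0 ± 1.90 and 20.6 ± 1.47.

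Markers of other cell types were followed beside the members, and the lists did not share one direction. The trophoblast list, markers of the first epithelium of the embryo, summed to 302 ± 23.2 CPM with Repsox and 7.69 ± 0.898 with TGF-beta in WT, and to 870.1 ± 34.3 with Repsox and 272 ± 12.2 with TGF-beta in K36M. All 9 tested trophoblast markers fell in WT under TGF-beta, and 7 were higher in K36M than in WT in that medium, with none at 0 in both libraries of a group. All 10 pluripotent markers, Epcam among them, fell in WT under TGF-beta, and all 10 were higher in K36M there. Of the fibroblast list, 6 rose and 4 fell in WT under TGF-beta, and 1 was higher and 6 lower in K36M in that medium. Keratinocyte markers, which in WT overlapped between the media, summed to 22.3 ± 3.05, 17.8 ± 5.05, 30.9 ± 5.26 and 52.2 ± 4.68 CPM in the same order of groups, with Ivl or Trp63 at 0 in each group. Endothelial markers summed to 51.7 ± 0.283, 120.4 ± 0.565, 67.1 ± 2.92 and 94.3 ± 0.837 CPM, highest in WT under TGF-beta. That sum did not reflect the list: of 7 tested, only Tek rose in WT under TGF-beta (2.14 ± 0.099) and 5 fell. Tie1, Emcn and Cldn5 were at 0 in that group. Primitive endoderm markers summed to 5.57 ± 0.448, 3.23 ± 0.915, 18.2 ± 2.80 and 10.5 ± 2.32, and the glia and Sertoli list to 77.1 ± 6.17, 19.3 ± 2.30, 117 ± 2.53 and 65.0 ± 3.73. Some genes stand on more than 1 list (Krt7, Tfap2c and Cdx2 also among trophoblast markers, Krt5, Krt14 and Dsg3 among keratinocyte markers, Cldn5 and Esam among endothelial markers, and Twist2 among fibroblast markers). The part of these shifts in the changes of the junction genes was not tested.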

How the data were processed

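The values were the deposited counts, whole reads per gene in 8 libraries from RNA depleted of ribosomal RNA, in 1 table of 26930 genes, of which 3195 were at 0 throughout. The submitters' processing notes name mm9, HTSeq 0.11.2, STAR 2.5.0 and edgeR. What edgeR was used for, the annotation, the strand setting and filters are not given in the sources used here. Every column of the table was used. Coordinates came from GENCODE vM1 (mm9) by Ensembl identifier.

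Tests used the quasi-likelihood F test of edgeR 4.0.16 (R 4.3.3) on the 15789 genes that filterByExpr kept, with TMM factors of 0.894 to 1.057 for libraries of 10928302 to 15594217 counts. The model had 4 group means over all 8 libraries (4 residual degrees of freedom, common coefficient of variation 0.0702). The SE is the absolute log2 fold change over the root of F. Floors (3 counts) cover only the counting error of the group at 0. The members and gene lists were chosen with earlier results of these data known. Members named with values were the up to 4 of highest level in each role. To these came the 3 largest called changes per comparison with a mean log2 CPM of at least 2, and called members that went against the majority. From other lists, genes with values were taken from the 3 called genes of smallest adjusted p in a comparison. Values are not printed for every list and comparison. Members named beside these complete the counts and were added after their values were seen. Counts were simulated for the 15789 genes, with 100 genes changed 2-fold and another 100 changed 4-fold. Of those changed 2-fold, 70% were called for K36M against WT under Repsox, and likewise under TGF-beta. The share was 76% for the medium in WT, 75% for the medium in K36M and 61% for the interaction. Between 4 and 11 unchanged genes were called. In the data far more genes were called than were changed here, so these rates need not hold for the data. Alternatives were DESeq2 1.42.0, plain totals, upper-quartile factors, other filters, only the groups compared, a replicate block and leaving out each library.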

Additional observations from a re-analysis of the deposited data

Results flagged for a closer look

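The effect of TGF-beta against Repsox differed between K36M and WT by the test of the difference itself (edgeR's quasi-likelihood interaction, Benjamini-Hochberg adjusted over all 15789 genes) for 27 of the 30 tested members, as for 51% of all genes. Values are the log2 fold change in K36M minus that in WT, with SE.

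Among claudins the difference was 3.96 ± 0.21 for Cldn3, 2.35 ± 0.11 for Cldn4, 2.64 ± 0.13 for Cldn6, 3.64 ± 0.24 for Cldn7, 3.39 ± 0.43 for Cldn9 and -0.88 ± 0.14 for Cldn12. The fitted value of 6.91 ± 1.85 for Cldn11 depends on the prior count, since WT under TGF-beta had 0 counts. Among other tight junction membrane proteins it was 3.58 ± 0.28 for Ocln, 2.10 ± 0.27 for Marveld2, 2.26 ± 0.30 for Marveld3, 0.79 ± 0.11 for F11r, 2.56 ± 0.24 for Lsr and -0.97 ± 0.13 for Cxadr.

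Among scaffold and polarity genes it was 0.50 ± 0.10 for Tjp1, 4.13 ± 0.23 for Tjp3, 3.40 ± 0.16 for Cgn, 4.42 ± 0.24 for Crb3 and 2.44 ± 0.15 for Pard6b. In desmosomes it was 2.87 ± 0.18 for Dsg2, 0.77 ± 0.14 for Dsc2, 0.38 ± 0.088 for Dsp, 2.54 ± 0.38 for Pkp1, -0.90 ± 0.12 for Pkp2, 3.90 ± 0.23 for Pkp3, 2.91 ± 0.15 for Ppl, 2.12 ± 0.32 for Evpl and -0.25 ± 0.093 for Jup. In WT, 2 of these genes, Dsp and Pkp1, were not called between media, and the difference came with an increase in K36M.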

How the results depend on the processing

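Of the counts of members called, 146 values under the alternatives stayed within 1.5 times that of the reported fit and 2 did not: under Repsox, 2 members were called lower in K36M, against 4, with a stricter filter on low counts (27 members tested) and without WT Repsox replicate 2 (2 to 3 over the left-out libraries). For single members, 2105 values kept direction and call, 50 lost the call, 21 gained it and 23 reversed. With 1 library of a group left out, the lone library is assumed to vary like the other groups. The reversed values belong to results that were not called. Leaving out 1 library gave, for K36M against WT under Repsox, Cldn12 -0.071 to 0.24, Jup -0.091 to 0.027 and Cldn11 -0.42 to 0.84, and under TGF-beta Pkp2 -0.011 to 0.15 and Pkp1 -0.19 to 0.38. For the medium in K36M it gave Cldn4 -0.094 to 0.057, Cgn -0.039 to 0.028 and Cldn15 -0.028 to 2.36, and for the interaction Cldn23 -1.57 to 0.63. Plain totals gave -0.16 for Dsp in WT, 0.0096 for Cgn in K36M and 0.17 for the Cldn23 interaction; upper-quartile factors gave -0.014 for Dsp, 0.042 for Cldn4, 0.053 for Cgn and 0.070 for Cldn23; DESeq2 gave 0.0043 for Cldn4 and 0.016 for Cgn. The cause was not tested. Over all genes, plain totals gave 3425 higher and 6709 lower in WT under TGF-beta (4580 and 5271 with TMM) and an interaction above 0 for 5738 and below 0 for 2482 (4493 and 3562).

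Same-numbered libraries did not deviate together (correlations -0.02 to 0.032 across genes), so the numbers were not taken to pair them. With a replicate block, 22 members fell and 4 rose in WT under TGF-beta, and the other counts of members were as without it; Pkp1 in WT (-0.51, adjusted p = 0.0371) and Tjp1 in K36M (0.16, adjusted p = 0.0373) gained a call and Cldn11 in K36M lost it (1.60, adjusted p = 0.0718). Depth limits Cldn1, Cldn2, Cldn8, Cldn10, Cldn11 and Cldn15, where a few reads decide the value.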
